A study of Saccharomyces cerevisiae with 12 samples.

Results

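Acute heat was set against early loss of nuclear Sis1 in budding yeast, Saccharomyces cerevisiae. The comparison rests on 4 of the 12 libraries of the series, the 15 and 30 min libraries of a heat course and the 15 and 30 min libraries of a depletion course. Each pair of libraries was matched by time, and neither untreated library entered the comparison. All cells were of the strain labelled Sis1-AA (source name DPY1284), grown in YPD, a rich glucose medium. The heat groups were held at 39 °C for 15 or 30 min. The depletion groups were given 1 µM rapamycin for 15 or 30 min, and the labels do not state the temperature of that course. AA stands here for anchor-away, a method in which rapamycin binds a tagged nuclear protein to an anchor that carries it out of the nucleus. The untreated library of the heat course is labelled as a 30 °C control. That of the depletion course is its time 0. Each group is 1 library, so no time point was replicated, and the labels describe no rapamycin control without the anchor and no sample given both treatments. Of 5045 listed genes, 4937 averaged 10 or more across all 12 libraries and were tested, and 108 fell below that level.

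Sis1 is a J-domain protein that guides Hsp70 chaperones to their clients. In yeast, Hsp70 with Sis1 holds the transcription factor Hsf1 in check, and Hsf1 drives the genes of chaperones that fold or disaggregate proteins. Heat also acts through the factors Msn2 and Msn4, which drive the general stress genes, and it turns down the genes that make ribosomes. The comparison asks which parts of the early heat response go beyond, and which fall short of, what loss of nuclear Sis1 brings.

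Values are the authors' normalized gene counts, and differences are log2(value + 1) in heat minus log2(value + 1) with depletion, at the same time. That scale shrinks the changes of weakly expressed genes. The standard error (SE) and the Benjamini-Hochberg adjusted p come from 1 limma fit across the 4937 genes with time as a block. A gene is called higher or lower in heat if its adjusted p is under 0.05 and it differs by at least 2-fold in that direction at 15 min and at 30 min. The p-values weigh the size of the difference against how alike it was at the 2 times and against the spread of other genes of similar level. They are no check against replicate cultures. The polyA RNA of a whole culture was measured, so fewer cells that express a gene and less RNA per cell cannot be told apart. Nor can treatment be told apart from anything else that differed between the courses.

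The 4 libraries compared held between 3194135 and 4312120 reads over the listed genes, recovered from the normalized counts. The 10 genes with the most reads took 14.5% and 13.0% of the total in heat (15 and 30 min), against 7.35% and 7.38% with depletion. The 2 untreated libraries, compared with each other, differed by at least 2-fold in 40 genes, 20 of which are among the genes called here. SIS1 itself had normalized counts of 7824 and 2940 in heat, against 2811 and 3982 with depletion, while the untreated libraries had 670.3 and 443 (heat course and depletion course, an order kept for untreated values throughout). Its RNA was therefore higher in heat at 15 min and lower in heat at 30 min (difference 1.48 at 15 min and -0.44 at 30 min, adjusted p = 0.444). Anchor-away moves the protein and not the RNA, so the SIS1 count does not check the depletion. FPR1, which encodes a rapamycin-binding protein, had at most 2 reads in each of the 4 libraries and was not tested. TOR1, a target of rapamycin, had 561 and 584 in heat and 626 and 604 with depletion (adjusted p = 0.681). RPL13A, a ribosomal protein gene, had 102 and 181 in heat and 499.7 and 569.6 with depletion and fell with the other genes of its list. Its reads can be shared with the near-identical RPL13B.

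Heat and depletion differed in 1522 of the 4937 genes tested (30.8%). In heat 667 genes were called higher (13.5%) and 855 lower (17.3%). The called genes that were higher had a median difference of 1.87 at 15 min and 1.70 at 30 min, and those that were lower had medians of -2.48 and -2.03. Of the higher genes 65.5%, and of the lower genes 75.2%, lay farther from 0 at 15 min than at 30 min. Over all genes tested the median difference was -0.04 at 15 min and -0.06 at 30 min, with an SD of 1.72 and 1.45 over genes.

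**Figure D1:**
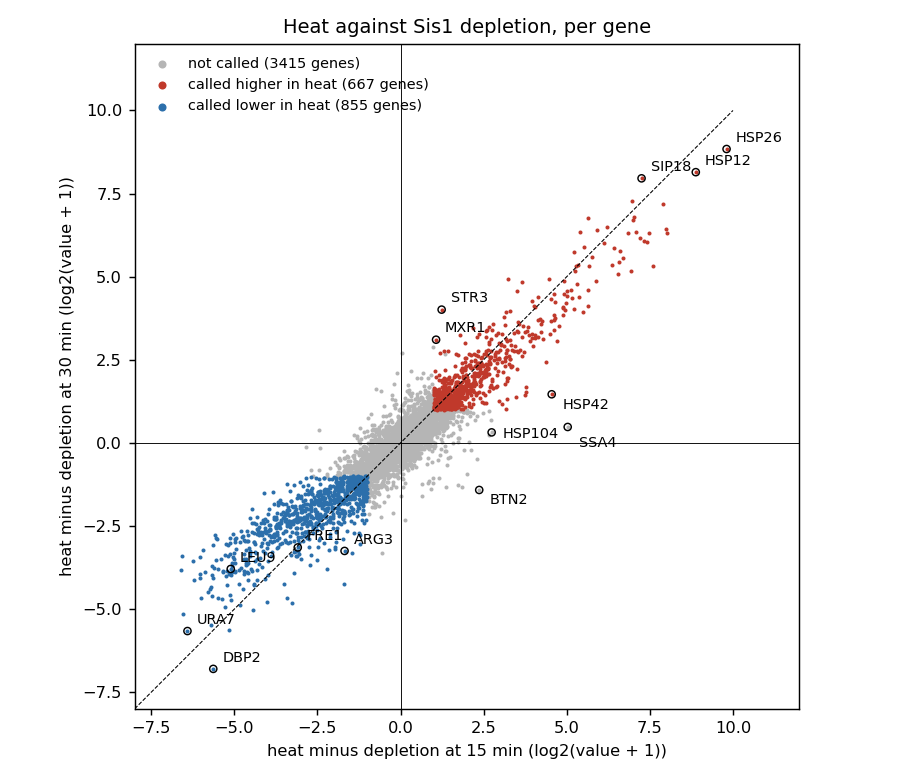
Difference of heat minus depletion at 15 min (x axis) and at 30 min (y axis), in log2(value + 1), with 1 point per gene tested and a dashed line where both are equal. The 667 genes called higher in heat (red) and the 855 called lower (blue) lie along the line, a place that the rule of a call favours. SSA4, HSP104 and BTN2, which were not called, lie well below it.

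General stress genes were far higher in heat than with depletion. Of the 36 listed targets of Msn2 and Msn4, 35 were called higher in heat and none lower, against 13.5% of all genes higher. Their median difference was 5.89 at 15 min and 4.97 at 30 min. The exception was GAC1, which encodes a regulatory subunit of a protein phosphatase that acts on glycogen synthase (difference -0.04 ± 0.26, adjusted p = 0.909). None of the 36 was raised with depletion by 2-fold over its untreated library at both times, and 35 were raised in heat. Of all 4937 genes tested, 65 were raised with depletion and 802 in heat. With so few genes raised by depletion, none of 36 is near the background and is no result about these targets.

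HSP26, a small heat shock protein, had the largest difference among genes with a mean of at least 50. It had 42652 and 28488 in heat (15 and 30 min), against 46.6 and 61.1 with depletion (difference 9.32 ± 0.31 (SE), adjusted p = 0.000477). The untreated libraries held 72.7 and 55.9, so the depletion values stayed near the untreated ones. HSP12, a membrane-associated stress protein, had 59064 and 68186 in heat and 124 and 240.1 with depletion (difference 8.51 ± 0.33, adjusted p = 0.000477). SIP18, a hydrophilin of desiccated cells, had 568 and 809.6 in heat and 2.74 and 2.26 with depletion. The depletion values of SIP18 were 3 and 2 reads, and the ratio of heat to depletion was 207 at 15 min, with a 95% counting interval of 70.6 to 1009, and 358 at 30 min, with an interval of 98.8 to 2964. FMP45, a protein of the plasma membrane, had 6968 and 5219 in heat and 28.3 and 35.1 with depletion. TMA10, a ribosome-associated protein, had 5770 and 2122 in heat and 21.9 and 23.8 with depletion. RTC3 had 9436 and 4347 in heat and 35.6 and 53.2 with depletion. For all 6 genes both heat libraries lay above both depletion libraries, which their choice as the largest called differences favours. CTT1, the cytosolic catalase, followed with 12717 and 6092 in heat and 103 and 166 with depletion (difference 6.06 ± 0.44, adjusted p = 0.00104). DDR2, a classical stress marker, had 7289 and 7374 in heat and 40.2 and 91.7 with depletion. Among 9 hydrophilins and desiccation proteins, 7 were higher in heat and 1 lower. The lower one was NOP6, which takes part in ribosome assembly.

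The promoters of HSP12 and HSP42 are shown because they carry the motifs that mark the 2 stress programmes. HSP42, a small heat shock protein, was raised in both courses and is described with the chaperone genes. Each run covers bases -250 to -51 before the start codon in assembly R64 (sacCer3), read 5′ to 3′ on the strand of the gene, and capitals mark motif matches on either strand. HSP12 is at chrVI:107006-107205 on the plus strand and holds 2 copies of the stress response element AGGGG, both as its complement. HSP42 is at chrIV:806371-806570 on the plus strand and holds 3 copies of AGGGG and 2 overlapping matches to the heat shock element of 3 alternating units, GAANNTTCNNGAA.
HSP12: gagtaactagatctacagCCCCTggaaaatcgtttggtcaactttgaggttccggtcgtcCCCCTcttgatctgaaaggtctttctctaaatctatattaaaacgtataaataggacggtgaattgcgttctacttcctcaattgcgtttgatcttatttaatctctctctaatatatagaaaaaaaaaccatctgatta
HSP42: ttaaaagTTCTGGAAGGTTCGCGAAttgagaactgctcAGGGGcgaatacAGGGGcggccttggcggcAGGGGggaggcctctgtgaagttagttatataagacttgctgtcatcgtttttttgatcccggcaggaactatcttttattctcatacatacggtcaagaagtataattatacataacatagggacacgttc

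Over windows of 300 bases (250 before to 50 after the start codon), AGGGG occurred in 46.9% of the promoters of genes called higher in heat and in 11.5% of those of genes called lower. The share over all 4917 promoters was 21.2%. AGGGG also occurred in 14 of 35 promoters (40%) of genes raised in both courses. It was in 8 of 27 (29.6%) of those raised with depletion and not in heat, and in 43.3% of those raised in heat and not with depletion. AGGGG was thus about as frequent in genes raised in both courses as in those raised in heat only. The heat shock element occurred in 1.5% of promoters of genes called higher, 0.941% of those of genes called lower and 0.814% of all. It occurred in 4 of 35 promoters (11.4%) of genes raised in both courses and in 3 of 27 (11.1%) of those raised with depletion and not in heat. These shares describe letters in a window, and no test was made of them.

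Most of the listed genes of storage sugars were called higher in heat. Of 10 genes of trehalose synthesis and breakdown, 9 were called higher in heat, with a list median of 3.93 at 15 min and 3.40 at 30 min. TSL1, a regulatory subunit of trehalose synthase, had 28687 and 21117 in heat and 279 and 447 with depletion (difference 6.12 ± 0.37, adjusted p = 0.00084). TPS1, which makes trehalose phosphate, had 20726 and 14857 in heat and 676 and 928 with depletion. TPS2, the phosphatase of the next step, had 12788 and 8569 in heat and 509 and 631 with depletion. NTH1, a trehalase that breaks the sugar down, was higher as well, with 5220 and 3895 in heat and 514 and 564 with depletion. PGM2, the major phosphoglucomutase, had the largest difference of the list (6.91 ± 0.24), and its paralog PGM1 was not called (0.24 ± 0.21, adjusted p = 0.371). Of 12 glycogen genes 10 were called higher, among them the synthase GSY2 (8922 and 7857 in heat, 488 and 596 with depletion), the branching enzyme GLC3 (2703 and 2047 in heat, 234 and 202 with depletion) and the phosphorylase GPH1 (13874 and 8008 in heat, 80.4 and 121 with depletion). Genes of synthesis and of breakdown were thus both higher in heat. TPS1, TPS2, TSL1, NTH1, PGM2, GSY2, GLC3, GPH1 and GAC1 are also among the listed targets of Msn2 and Msn4. The counts of these lists are therefore not separate from the count of those targets.

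Of 21 genes of antioxidant enzymes, 16 were called higher in heat (76.2%, against 13.5% of all genes) and none lower. The list median was 2.21 at 15 min and 1.71 at 30 min. Superoxide dismutase genes were among them. SOD1 had 11255 and 8913 in heat and 2843 and 3450 with depletion (adjusted p = 0.017), and the mitochondrial SOD2 had 3984 and 2517 in heat and 406 and 434 with depletion. GPX1, a glutathione peroxidase, differed by 3.90 ± 0.23 (adjusted p = 0.00084). The peroxiredoxin genes PRX1 (3.13 ± 0.22, adjusted p = 0.00103) and TSA1 (1.49 ± 0.42, adjusted p = 0.0355) were higher too. HSP31, a glyoxalase of the DJ-1 family, had 3142 and 3716 in heat and 268 and 314 with depletion. AHP1, another peroxiredoxin gene, was the one member of this list that depletion also raised by 2-fold at both times.

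**Figure D2:**
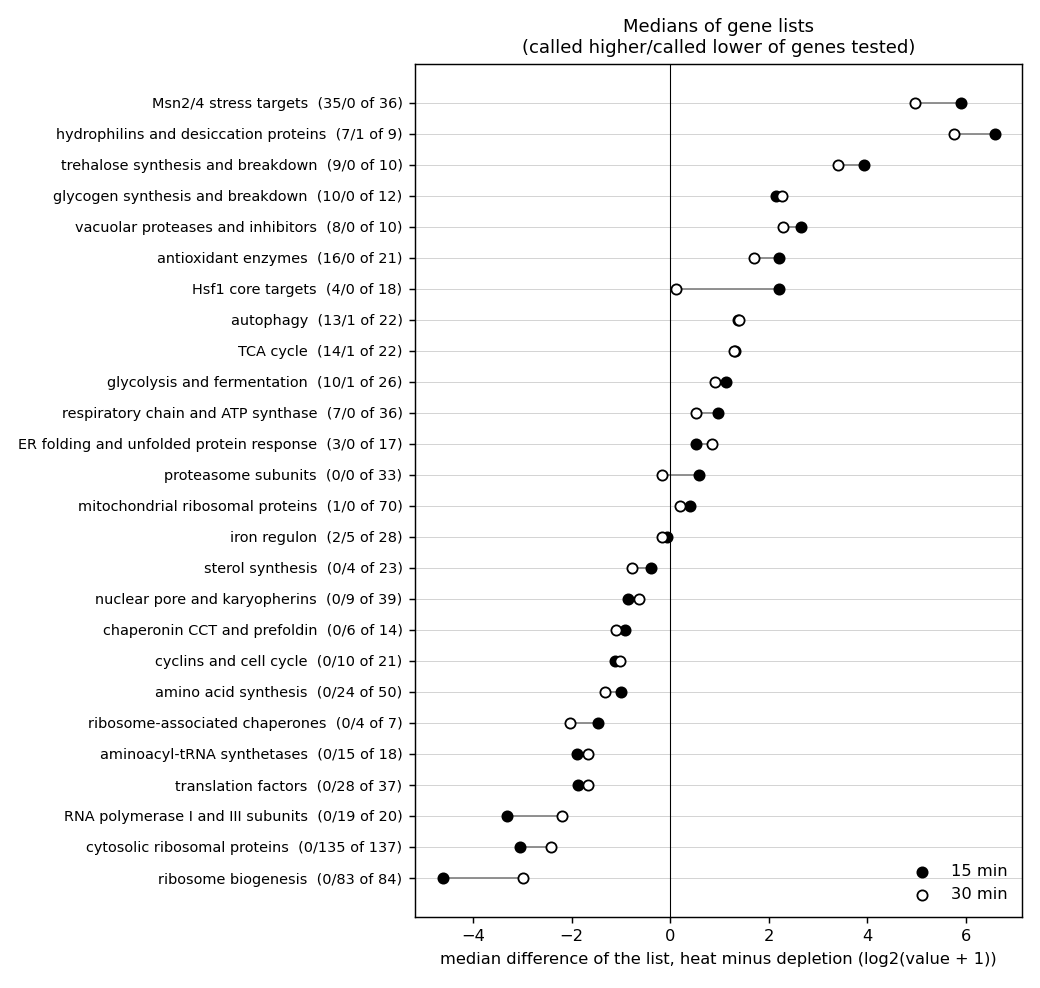
Median difference of heat minus depletion for 26 gene lists at 15 min (filled) and 30 min (open), in log2(value + 1), with the number of members called higher and lower in brackets. The medians of the stress lists lie to the right and those of the ribosome lists to the left at both times, and the list of Hsf1 core targets moves from 2.21 at 15 min to 0.12 at 30 min.

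The core targets of Hsf1 behaved in another way. Of 18 core targets, 4 were called higher in heat (22.2%, against 13.5% of all genes) and none lower. At 15 min all 18 were higher in heat, 14 of them by at least 2-fold, with a median difference of 2.21. At 30 min the median was 0.12, with 10 members above 0 and 8 below, 4 at least 2-fold higher and 4 at least 2-fold lower. Over all genes tested, 353 (7.15%) were above 0 at 15 min and below 0 at 30 min, against 8 of the 18 core targets (44.4%). This crossing was not particular to the core targets, since 25 of 33 proteasome genes (75.8%) crossed in the same way. Between 15 and 30 min the value of each of the 18 fell in heat and grew with depletion. Relative to its own untreated library, each course raised 14 of the 18 by at least 2-fold at both times.

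**Figure D3:**
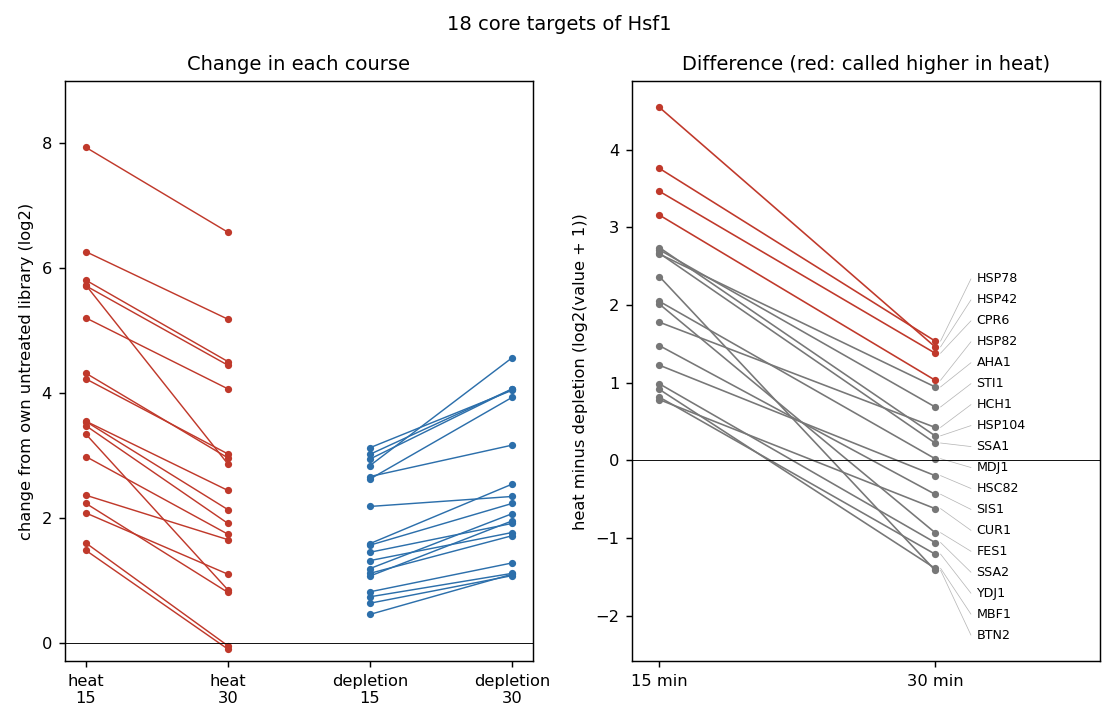
Left, change of the 18 core targets of Hsf1 from the untreated library of the same course (log2), in heat (red) and with depletion (blue) at 15 and 30 min. Right, heat minus depletion for the same genes, with the 4 called higher in heat in red. Each red line on the left falls, each blue line climbs, and on the right 8 genes end below 0.

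The 4 called core targets were HSP42, HSP78, CPR6 and HSP82. HSP42 had 14559 and 5676 in heat and 622 and 2060 with depletion, against 58.5 and 86.2 in the untreated libraries (difference 4.55 at 15 min and 1.46 at 30 min, adjusted p = 0.0238). HSP78, a mitochondrial disaggregase, had 18357 and 7602 in heat and 1354 and 2619 with depletion (adjusted p = 0.0173). CPR6, a cyclophilin that works with Hsp90, had 18540 and 8058 in heat and 1678 and 3095 with depletion (adjusted p = 0.0208). For these genes both heat libraries stayed above both depletion libraries, which the rule of a call favours. HSP82, the inducible Hsp90, had 30772 and 14541 in heat and 3445 and 7111 with depletion (difference 3.16 at 15 min and 1.03 at 30 min, adjusted p = 0.0464). HSP82 is a near-identical copy of HSC82, so reads can be shared between them, and its call is lost with TMM scaling (adjusted p = 0.0503). None of these 4 calls held when no filter on low values was used (adjusted p = 0.0593 to 0.119).

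HSP104, the cytosolic disaggregase, had 56611 and 22932 in heat and 8472 and 18428 with depletion. The difference was 2.74 at 15 min and 0.32 at 30 min (adjusted p = 0.181), so most of the gap at 15 min had closed at 30 min. SSA4, a stress-inducible Hsp70, had 81563 and 26477 in heat and 2498 and 19008 with depletion (difference 5.03 at 15 min and 0.48 at 30 min, adjusted p = 0.106). It showed the widest gap between the 2 times among the genes named here. SSA1 had 24573 and 11178 in heat and 3869 and 9580 with depletion (adjusted p = 0.144), and its reads can be shared with SSA2. STI1, which links Hsp70 to Hsp90, had 14286 and 5579 in heat and 2180 and 3464 with depletion (adjusted p = 0.0545). AHA1, which activates the Hsp90 ATPase, had 10136 and 4699 in heat and 1607 and 2439 with depletion. Its adjusted p was 0.0304, but it was under 2-fold at 30 min and so was not called. MDJ1, a mitochondrial J-domain protein, had 3643 and 1230 in heat and 881 and 1213 with depletion (adjusted p = 0.145).

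A further group of Hsf1 targets had lower values in heat than with depletion at 30 min. BTN2, which sorts misfolded proteins to deposits, had 11449 and 1572 in heat and 2220 and 4199 with depletion (difference 2.37 at 15 min and -1.42 at 30 min, adjusted p = 0.682). CUR1, its paralog, had 908 and 383 in heat and 528 and 590.0 with depletion (adjusted p = 0.869). FES1, a nucleotide exchange factor of Hsp70, had 5510 and 977 in heat and 1366 and 1865 with depletion (adjusted p = 0.549). MBF1, a transcriptional coactivator, had 14812 and 5512 in heat and 7868 and 14465 with depletion (adjusted p = 0.787). YDJ1, the other major cytosolic J-domain protein, had 8197 and 2617 in heat and 4666 and 6052 with depletion (adjusted p = 0.787). The heat value of each of these 5 genes lay above its depletion value at 15 min and below it at 30 min. SSA2, SSE1 and HSC82, constitutive chaperones, crossed in the same way, with differences of 0.98 at 15 min and -1.06 at 30 min for SSA2, 1.40 at 15 min and -0.65 at 30 min for SSE1 and 1.22 at 15 min and -0.20 at 30 min for HSC82. None of the 8 passed the test.

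**Figure D4:**
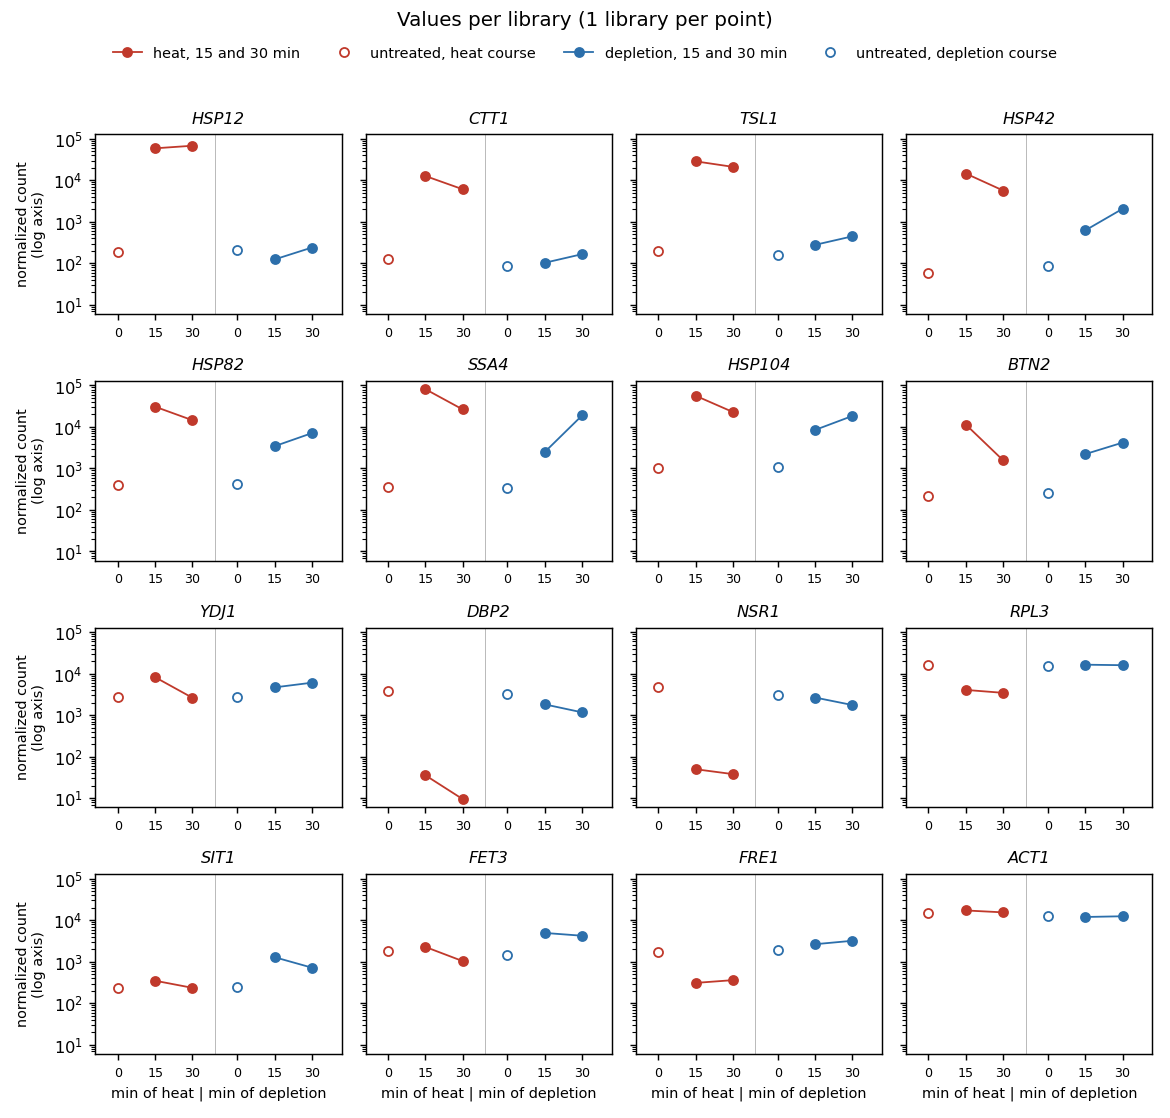
Normalized counts of 16 genes in the untreated (open, 0 min), 15 and 30 min libraries of heat (red, left) and of depletion (blue, right), on a log axis, with 1 library per point and no error bar because no group is replicated. HSP12, CTT1 and TSL1 are high in heat alone, the chaperone genes HSP42 to YDJ1 fall between 15 and 30 min of heat and climb with depletion, and SIT1, FET3 and FRE1 are lower in heat.

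Within the cytosolic Hsp70 system, 2 of 17 genes were called higher in heat (11.8%) and 3 lower (17.6%). Of all genes 13.5% were higher and 17.3% lower, so these shares are near the background and the called genes stand as single genes. The higher ones were SSA3 and SSE2, stress-inducible copies of Hsp70 and of its exchange factor Hsp110. SSA3 had 11339 and 7326 in heat and 306 and 449.6 with depletion (adjusted p = 0.0012). SSE2 had 5624 and 2976 in heat and 123 and 193 with depletion (adjusted p = 0.0014). Neither was raised by 2-fold with depletion. The lower ones included JJJ1 (-2.83 ± 0.49), a J-domain protein that acts in maturation of the large ribosomal subunit, and JJJ3 (-3.04 ± 0.34). In the Hsp90 system 2 of 14 were higher (HSP82 and CPR6) and 2 lower, the cochaperone CNS1 (54.9 and 75.9 in heat, 267 and 204 with depletion) and the phosphatase PPT1 (34.6 and 73.5 in heat, 612 and 556 with depletion). These shares, 14.3% higher and 14.3% lower, are also near those of all genes and are no result about the Hsp90 system.

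Of 12 mitochondrial chaperone genes, 3 were called higher in heat (25.0%, against 13.5% of all genes) and none lower. All 3 calls were lost in the limma fit with no filter on low values. HSP60, the chaperonin, had 18588 and 11100 in heat and 3286 and 4806 with depletion (adjusted p = 0.0284), and HSP10, its partner, had 9255 and 5481 in heat and 1561 and 2386 with depletion (adjusted p = 0.0178). SSC1, the mitochondrial Hsp70, had 11632 and 5734 in heat and 3929 and 5742 with depletion and was not called (adjusted p = 0.247). Some chaperones that serve new proteins were lower in heat. Of 7 genes of ribosome-associated chaperones, 4 were called lower in heat (57.1%, against 17.3% of all genes) and none higher. SSB1, an Hsp70 of the ribosome, had 409 and 1262 in heat and 12750 and 11442 with depletion, and its near-identical copy SSB2 had 479.9 and 1164 in heat and 8119 and 7252 with depletion. Their partners ZUO1 (-1.75 ± 0.24) and SSZ1 (-1.95 ± 0.24) were lower as well. In the chaperonin CCT and prefoldin 6 of 14 genes were called lower (42.9%) and none higher, the prefoldin subunit GIM4 most (-2.0 ± 0.22).

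In the endoplasmic reticulum, 3 of 17 genes of folding and of the unfolded protein response were called higher in heat (17.6%, near the 13.5% of all genes) and none lower. They were ERO1, PDI1 and MPD1, which form or exchange disulfide bonds. ERO1 had 3248 and 2116 in heat and 517 and 719 with depletion (adjusted p = 0.00568). PDI1 had 7560 and 9387 in heat and 2765 and 3256 with depletion. MPD1 had 1195 and 1434 in heat and 221 and 243 with depletion. KAR2, the Hsp70 of this compartment and a target of Hsf1, had 30749 and 19456 in heat and 6564 and 12098 with depletion and was not called (difference 2.23 at 15 min and 0.69 at 30 min, adjusted p = 0.11).

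No proteasome gene was called, of 33 tested, although all 33 were above 0 at 15 min and 25 were below 0 at 30 min. That is 75.8% crossing in this direction, against 7.15% of all genes. Between 15 and 30 min all 33 fell in heat and grew with depletion, like the core targets of Hsf1. The median difference was 0.58 at 15 min and -0.16 at 30 min, and the value at 30 min was 0.08 under quantile normalization. RPN12 had the largest difference (0.71 ± 0.20, adjusted p = 0.0369), under 2-fold at both times. RPN4, the transcription factor of proteasome genes, had 1226 and 872 in heat and 655 and 805 with depletion (adjusted p = 0.168). Of 26 genes of ubiquitin and of ubiquitination of misfolded proteins, 5 were higher in heat (19.2%) and 3 lower (11.5%). These shares are near those of all genes (13.5% and 17.3%), so the called genes stand as single genes. UBI4, the stress-inducible polyubiquitin, had 13980 and 7276 in heat and 1789 and 3016 with depletion (adjusted p = 0.0205), and UBC5, a conjugating enzyme, had 266 and 286 in heat and 74.9 and 92.9 with depletion. TMC1, a stress-inducible zinc-finger protein, differed by 1.85 ± 0.35. The 3 lower members, RPS31, RPL40A and RPL40B, encode ubiquitin fused to a ribosomal protein. RPS31 had 3270 and 3182 in heat and 27352 and 32047 with depletion.

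Genes that build ribosomes were lower in heat than with depletion. Of 137 genes of cytosolic ribosomal proteins, 135 were called lower in heat, against 17.3% of all genes, with a median difference of -3.05 at 15 min and -2.42 at 30 min. RPL3 had 4056 and 3445 in heat and 16428 and 15984 with depletion, against 16543 and 15166 untreated (difference -2.12 ± 0.40, adjusted p = 0.0104). RPL9A had the lowest difference (355 and 584 in heat, 10348 and 11183 with depletion). RPL15B had 218 and 183 in heat and 159 and 136 with depletion and, with RPL9B, was not called. Many of these genes are near-identical pairs whose reads can be shared. Relative to the untreated libraries the list changed by a median of -3.10 and -2.49 in heat (15 and 30 min) and of -0.11 and -0.05 with depletion. By contrast, of 70 mitochondrial ribosomal protein genes only MRP8 was called (2.53 ± 0.21, higher), and it was placed in this list by its name.

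Of 84 ribosome biogenesis genes, 83 were called lower in heat, with a median difference of -4.61 at 15 min and -2.99 at 30 min. The exception was the kinase gene RIO1 (0.28 ± 0.19, adjusted p = 0.261). DBP2, an RNA helicase gene, had 35.6 and 9.48 in heat and 1817 and 1166 with depletion, against 3826 and 3191 untreated (difference -6.22 ± 0.32, adjusted p = 0.000661). This was the lowest difference among genes with a mean of at least 50. DHR2, a nucleolar helicase gene, had 2.03 and 3.56 in heat and 284 and 162 with depletion. Its heat values were 2 and 3 reads, and the ratio of heat to depletion was 0.00715 at 15 min, with a 95% counting interval of 0.000862 to 0.0260, and 0.0220 at 30 min, with an interval of 0.00448 to 0.0655. NSR1, the yeast nucleolin, had 49.8 and 37.9 in heat and 2658 and 1753 with depletion. ENP2 had 18.3 and 8.30 in heat and 696 and 459 with depletion. NOP7, a factor of the large subunit, had 42.7 and 93.6 in heat and 2823 and 2413 with depletion. Both heat libraries lay below both depletion libraries in each of these genes, which their choice as the largest called differences favours. Relative to the untreated libraries the list changed by a median of -4.88 and -3.65 in heat (15 and 30 min) and of -0.58 and -0.81 with depletion. The 2 members at least 2-fold lower at both times of depletion belong to the 13 genes lowered in both courses.

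The promoters of DBP2 and NSR1 are shown as examples of the paired motifs of this group, PAC (GATGAG) and RRPE (AAAATTTT). DBP2 is at chrXIV:413389-413588 on the plus strand and NSR1 at chrVII:807707-807906 on the minus strand of R64. Each holds PAC as its complement and RRPE a few bases downstream.
DBP2: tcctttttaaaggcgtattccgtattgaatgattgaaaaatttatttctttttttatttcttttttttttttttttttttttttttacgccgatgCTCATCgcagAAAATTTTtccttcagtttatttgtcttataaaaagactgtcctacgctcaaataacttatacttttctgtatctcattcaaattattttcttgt
NSR1: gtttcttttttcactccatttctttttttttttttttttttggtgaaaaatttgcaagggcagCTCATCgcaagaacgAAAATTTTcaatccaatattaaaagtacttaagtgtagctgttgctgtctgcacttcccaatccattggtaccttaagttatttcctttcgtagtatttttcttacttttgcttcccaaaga

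PAC occurred in 43.8% of the 300-base windows of genes called lower in heat, in 12.6% of those of genes called higher and in 20.2% of all. RRPE occurred in 31.1% of the windows of genes called lower, in 3.46% of those of genes called higher and in 10.1% of all. The proteasome motif PACE (GGTGGCAAA) occurred in 1.20% of the windows of genes called higher, 0.235% of those of genes called lower and 1.34% of all.

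Most of the other translation genes listed were lower in heat too. Of 20 subunits of RNA polymerases I and III, 19 were called lower, led by RPA190, the largest subunit of polymerase I (68.1 and 242 in heat, 3512 and 3139 with depletion). RPA14 was just above the limit at 15 min (difference -0.85 at 15 min and -1.09 at 30 min). Of 37 translation factors 28 were called lower. YEF3, elongation factor 3, had 1169 and 2453 in heat and 26960 and 26066 with depletion. Of 18 aminoacyl-tRNA synthetases 15 were called lower, with KRS1 lowest (803 and 689 in heat, 4289 and 5050 with depletion). None in these 3 lists was called higher. Of all genes 17.3% were called lower and 13.5% higher.

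Among regulators of growth and stress, 6 of 27 genes were higher in heat (22.2%) and 3 lower (11.1%), against 13.5% and 17.3% of all genes. DOT6 and TOD6 encode related repressors that bind the PAC motif, and they moved in opposite directions. DOT6 had 818 and 779 in heat and 319.7 and 308 with depletion (1.34 ± 0.19), and TOD6 had 18.3 and 30.8 in heat and 370.0 and 181 with depletion (-3.39 ± 0.45). IFH1, a coactivator of ribosomal protein genes, had 253 and 326 in heat and 848 and 665 with depletion. Its call was lost under each rescaling tried. XBP1, a stress-induced repressor, had 645 and 807 in heat and 106 and 75.9 with depletion. GIS1, a factor of the diauxic shift, differed by 1.36 ± 0.20, and USV1, a stress-induced zinc-finger protein, by 3.15 ± 0.19. YAK1, a kinase that restrains growth, was higher in heat (1670 and 1294) than with depletion (278 and 251) and was raised in both courses relative to the untreated libraries (188 and 122). HSF1 itself had 687 and 577 in heat and 492 and 490.4 with depletion (adjusted p = 0.184), and MSN4 had 342 and 341 in heat and 256 and 246 with depletion (adjusted p = 0.099).

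Carbon metabolism shifted in part. Of 26 genes of glycolysis and fermentation, 10 were called higher in heat (38.5%) and 1 lower (3.85%), against 13.5% and 17.3% of all genes. The higher ones held the sugar kinases HXK1 (24899 and 13929 in heat, 169 and 195 with depletion) and GLK1 (32610 and 31053 in heat, 376 and 532 with depletion). TDH1, a minor isozyme of glyceraldehyde phosphate dehydrogenase, differed by 6.20 ± 0.32 and ENO1, an enolase, by 4.70 ± 0.34. The major isozyme gene TDH3 had 103439 and 90955 in heat and 46026 and 48122 with depletion (adjusted p = 0.47), and reads can be shared among these near-identical genes. PDC1, pyruvate decarboxylase, had 17990 and 17980 in heat and 24028 and 16401 with depletion (adjusted p = 0.86). The lower one was ADH2, an alcohol dehydrogenase that uses ethanol (27.4 and 23.7 in heat, 155 and 187 with depletion). Among 13 hexose transporters, 4 were higher (30.8%) and 3 lower (23.1%), against 13.5% and 17.3% of all genes. HXT5 had 3731 and 3551 in heat and 67.6 and 72.5 with depletion, and HXT7, of high affinity, had 1230 and 577 in heat and 40.2 and 34.0 with depletion. HXT1, of low affinity, had 55.9 and 56.9 in heat and 1128 and 812 with depletion, HXT3, also of low affinity, had 327 and 69.9 in heat and 3148 and 2018 with depletion, and HXT2 had 1089 and 136 in heat and 3000 and 1351 with depletion.

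In the TCA cycle 14 of 22 genes were called higher in heat (63.6%, against 13.5% of all genes) and 1 lower. CIT1, mitochondrial citrate synthase, had 7943 and 5891 in heat and 1305 and 1194 with depletion. MDH1, malate dehydrogenase, differed by 2.85 ± 0.25, and SDH2, a subunit of succinate dehydrogenase, by 2.40 ± 0.20. Of 36 genes of the respiratory chain and ATP synthase, 7 were called higher (19.4%, near the 13.5% of all genes) and none lower. NDE2, an external NADH dehydrogenase, was farthest from 0 (434 and 459.9 in heat, 10.1 and 15.8 with depletion).

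Among biosynthetic genes, more were lower than higher in heat. Of 34 genes of purine and pyrimidine synthesis, 14 were lower (41.2%) and 5 higher (14.7%), against 17.3% and 13.5% of all genes. URA7, the major CTP synthase, had 25.4 and 36.8 in heat and 2247 and 1909 with depletion (difference -6.04 ± 0.25, adjusted p = 0.000486). GUA1, GMP synthase, had 223 and 96.0 in heat and 3656 and 2676 with depletion. IMD4, an IMP dehydrogenase whose gene overlaps a noncoding RNA gene on the same strand, differed by -4.09 ± 0.34, and RNR1, the large subunit of ribonucleotide reductase, by -3.28 ± 0.22. ADE17, of purine synthesis, went up to 1187 and 3581 in heat, against 259 and 324 with depletion, and URA10 differed by 2.30 ± 0.22. Of 50 amino acid synthesis genes, 24 were lower and none higher. LEU9, of leucine synthesis, had 54.9 and 147 in heat and 1928 and 2050 with depletion. GCN4, the activator of these genes, had 3902 and 4113 in heat and 8778 and 8845 with depletion (adjusted p = 0.0469), a call that each of 5 other settings lost.

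Relative to the untreated library of the same course, 802 genes were raised by at least 2-fold at both times in heat and 65 with depletion. Of the 65, 37 were raised in both courses, and 28 with depletion but not by 2-fold at both times in heat. Of these 28, 24 were not called in the direct comparison, and their median difference was -0.48. Heat neither raised nor lowered 27 of the 28, with a median heat change of 0.60 against 1.52 with depletion. Most of the 28 were thus not told apart from heat. In the direct comparison 15 of the 65 were called higher in heat, 4 lower and 46 neither. Of all genes tested 13.5% were called higher and 17.3% lower. Heat raised 765 genes that depletion did not, and 587 of them were called higher. These classes use the untreated libraries and are a description with no test.

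**Figure D5:**
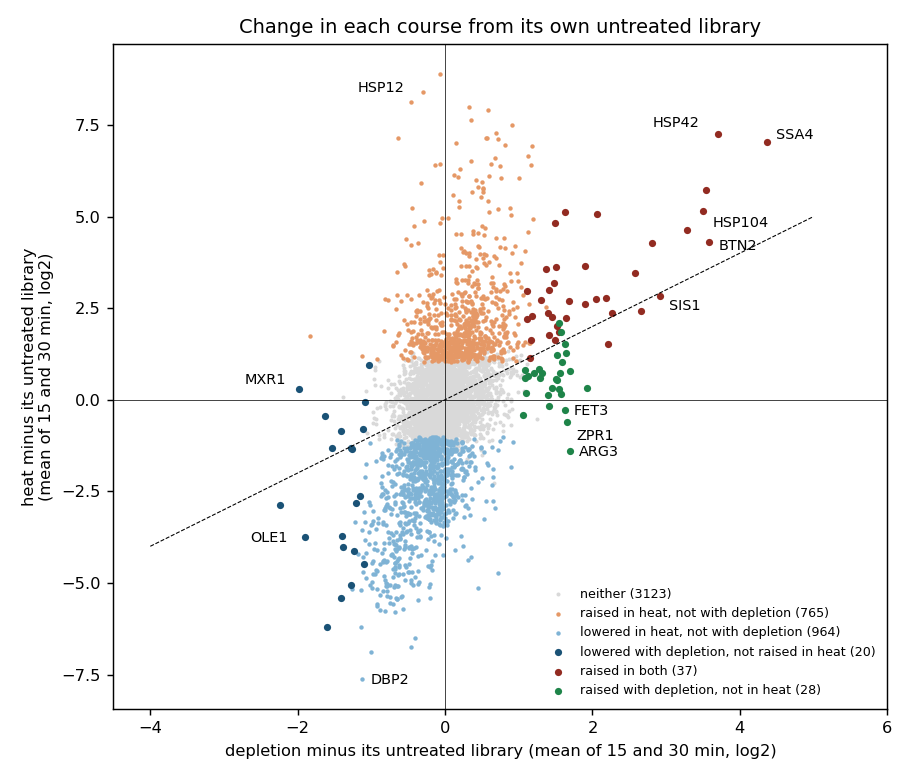
Mean change over 15 and 30 min from the untreated library of the same course (log2), with heat on the y axis and depletion on the x axis, and 1 point per gene tested. The dashed line marks equal change. Heat changes span a wider range than depletion changes, and the 28 genes raised with depletion and not in heat (green) include FET3, ZPR1 and ARG3.

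The 4 genes raised with depletion and called lower in heat were ARG3, SIT1, FET3 and DLD3. ARG3, ornithine carbamoyltransferase of arginine synthesis, had 20.3 and 17.8 in heat and 67.6 and 178 with depletion, against 51.3 and 33.1 untreated (difference -2.47 ± 0.45, adjusted p = 0.00922). It was lowered in heat and raised with depletion. SIT1, an importer of iron-bearing siderophores, had 349.8 and 236 in heat and 1291 and 723 with depletion, against 231 and 254 untreated (difference -1.75 ± 0.20, adjusted p = 0.00253). FET3, the multicopper oxidase of iron uptake, had 2283 and 1040 in heat and 4956 and 4247 with depletion, against 1854 and 1487 untreated (difference -1.57 ± 0.33, adjusted p = 0.0147). DLD3, a cytosolic lactate dehydrogenase of the D form, had 2477 and 1635 in heat and 5061 and 5088 with depletion (adjusted p = 0.02). All 4 had both heat values below both depletion values, which the rule of a call favours. The calls of FET3 and DLD3 were lost under quantile normalization, and that of DLD3 also with TMM scaling. ZPR1, a zinc-finger protein that helps fold a translation elongation factor, had 1940 and 428 in heat and 2871 and 4253 with depletion (difference -0.57 at 15 min and -3.31 at 30 min, adjusted p = 0.0589) and was not called. ROX1, a repressor of hypoxic genes, was below 2-fold (-0.65 ± 0.18, adjusted p = 0.0367), as was FRE4, a siderophore reductase (-0.78 ± 0.20, adjusted p = 0.0263).

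Among 28 genes of the iron regulon, 5 were lower in heat (17.9%) and 2 higher (7.14%). Of all genes 17.3% were lower and 13.5% higher, so the share of lower genes is that of the background and is no result about the regulon. Heat raised 7 of the 28 and depletion 8 over the untreated library, against 802 and 65 of all 4937 genes tested. Beside SIT1 and FET3, the lower ones were FTR1, FRE1 and ISU2. FTR1, the permease that works with Fet3, had 681 and 428 in heat and 1401 and 1111 with depletion (adjusted p = 0.00836). FRE1, a metal reductase, had 310.1 and 362 in heat and 2654 and 3209 with depletion (adjusted p = 0.000959), and its untreated values were 1681 and 1885. ISU2, a scaffold for iron-sulfur clusters, had 162 and 124 in heat and 439 and 502 with depletion (adjusted p = 0.00348). Its paralog ISU1 had 1735 and 1758 in heat and 1843 and 1940 with depletion, and it was raised in both courses (difference -0.11 ± 0.24, adjusted p = 0.708). LSO1, a small protein of iron-poor cells, was higher in heat at low counts, with 41.7 and 27.3 in heat and 3.65 and 6.79 with depletion. The list had a median difference of -0.07 at 15 min and -0.17 at 30 min, which turned to 0.02 and 0.01 under quantile normalization. The members did not share a direction.

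The promoters of SIT1 and FET3 are shown for the core of the site of the iron regulators Aft1 and Aft2, GCACCC, which was searched after the values were seen. SIT1 is at chrV:27407-27606 and FET3 at chrXIII:388572-388771, both on the plus strand of R64. Each window holds 1 match to GCACCC, in SIT1 as its complement, and that of SIT1 also holds 2 matches to PAC.
SIT1: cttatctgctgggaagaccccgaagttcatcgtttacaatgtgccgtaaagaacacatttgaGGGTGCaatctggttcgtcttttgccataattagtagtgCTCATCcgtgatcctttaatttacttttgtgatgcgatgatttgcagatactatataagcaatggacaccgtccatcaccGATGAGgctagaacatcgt
FET3: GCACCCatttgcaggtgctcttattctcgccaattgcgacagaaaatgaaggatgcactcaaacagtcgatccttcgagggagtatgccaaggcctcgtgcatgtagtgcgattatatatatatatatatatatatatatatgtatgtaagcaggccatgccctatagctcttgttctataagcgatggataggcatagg

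GCACCC occurred in 5 of 27 windows (18.5%) of genes raised with depletion and not in heat, in 3 of 35 (8.57%) of those raised in both courses and in 4.31% of all windows. SIT1 and FET3 are among the 5, and the motif was searched with their values known, so the share is no independent support.

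Other genes raised in both courses included SPO24, NCE103 and MTL1. SPO24 had 3404 and 1188 in heat and 1894 and 2612 with depletion (difference 0.85 at 15 min and -1.14 at 30 min). NCE103, carbonic anhydrase, had 6217 and 4040 in heat and 1974 and 2578 with depletion, against 259.6 and 323 untreated. It was under 2-fold at 30 min and not called (adjusted p = 0.0487). MTL1, a wall stress sensor, had 396 and 409 in heat and 76.7 and 77.0 with depletion, against 82.7 and 27.4 untreated, and the untreated libraries differed as well.

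With depletion 21 genes were lowered by at least 2-fold at both times, and 10 of them were called lower and 3 higher in heat. Of all genes 17.3% were lower and 13.5% higher. The share of higher genes is thus near the background, and the 3 stand as single genes. OLE1, the fatty acid desaturase, had 762 and 594 in heat and 2361 and 1874 with depletion, against 9043 and 7891 untreated (difference -1.64 ± 0.21, adjusted p = 0.00346). It was lowered in both courses and more in heat. IZH4, a gene of zinc and lipid homeostasis, had 39.6 and 27.3 in heat and 63.0 and 43.0 with depletion (adjusted p = 0.12). Its relative IZH1 was lower in heat (-1.26 ± 0.19) and IZH2 was not called (-0.43 ± 0.18). INA1 had 48.8 and 55.7 in heat and 1256 and 730.5 with depletion, against 3952 and 2912 untreated, and RRS1, of ribosome assembly, had 8.13 and 26.1 in heat and 334 and 228 with depletion. MXR1, which repairs oxidized methionine, had 118 and 309 in heat and 55.7 and 35.1 with depletion, against 157 and 178 untreated (difference 2.09 ± 0.50, adjusted p = 0.0221). CPR5, a cyclophilin of the endoplasmic reticulum, had 1259 and 997 in heat and 295 and 305 with depletion, against 578 and 616 untreated, and was called higher in heat. CDA1 was the third gene called higher. VMA4, a subunit of the vacuolar proton pump, had 1428 and 968 in heat and 712 and 496 with depletion, against 1602 and 1834 untreated, and was just under 2-fold at 30 min. MET17, of sulfur assimilation, overlaps a gene on the other strand and had 413 and 2728 in heat and 403 and 416 with depletion (adjusted p = 0.126).

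Genes of cell division were in part lower in heat. Of 21 cyclin and cell cycle genes, 10 were called lower (47.6%, against 17.3% of all genes) and none higher. CLB2, a mitotic cyclin, had 96.6 and 53.3 in heat and 436 and 272 with depletion, and CLB1 had 91.5 and 53.3 in heat and 443 and 246 with depletion. CDC5, the polo kinase, differed by -1.99 ± 0.20, CDC20, an activator of the anaphase-promoting complex, by -1.62 ± 0.21 and CLN2, a G1 cyclin, by -1.64 ± 0.21. HO, the mating-type endonuclease, had 14.2 and 15.4 in heat and 339 and 238 with depletion. Of 10 histone genes the H2B genes HTB1 (-1.29 ± 0.25) and HTB2 (-1.67 ± 0.36) were called lower, and both calls were lost under quantile normalization and with TMM scaling. Their share of the histone list, 20%, is near the 17.3% of all genes called lower, so HTB1 and HTB2 stand as single genes. The 3 genes of α cells were all lower in heat. MF(ALPHA)1, the pheromone gene, had 291 and 256 in heat and 4658 and 4057 with depletion, MF(ALPHA)2 had 169.8 and 42.7 in heat and 1819 and 1110 with depletion, and the receptor gene STE3 had 202 and 482 in heat and 1903 and 1832 with depletion. Of 7 genes of a cells 4 were tested and none was called, while MFA1, MFA2 and AGA2 were below the level tested.

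Most of the listed genes of vacuolar proteases were called higher in heat. Of 10 genes of vacuolar proteases and their inhibitors, 8 were called higher (80%, against 13.5% of all genes). PEP4, the protease that matures the others, had 7690 and 7213 in heat and 1042 and 1092 with depletion, PRB1, a protease, had 2348 and 1806 in heat and 308 and 407 with depletion, and the inhibitor gene PBI2 had 1678 and 1470 in heat and 66.7 and 77.0 with depletion. TFS1, an inhibitor of carboxypeptidase Y, had the largest difference (6.35 ± 0.21). Of 22 autophagy genes 13 were called higher (59.1%) and 1 lower. ATG8, the ubiquitin-like protein of the autophagosome, had 583 and 526 in heat and 58.5 and 90.6 with depletion, and ATG33, of mitophagy, differed by 3.01 ± 0.19. Of 30 genes of wall integrity and wall proteins, 8 were higher (26.7%) and 4 lower (13.3%), against 13.5% and 17.3% of all genes. PIR3 had 936 and 2693 in heat and 74.0 and 94.0 with depletion, PST1 differed by 2.12 ± 0.26 and SED1 by 2.36 ± 0.47, whereas SCW10, a glucanase-like protein, was lower (356 and 204 in heat, 2046 and 2332 with depletion).

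In further lists the called genes were a minority. Of 39 genes of the nuclear pore and of karyopherins, 9 were lower in heat (23.1%, against 17.3% of all genes) and none higher. The import receptor gene KAP123 was lowest (103 and 162 in heat, 2520 and 1991 with depletion). Of 14 genes of fatty acid synthesis and the IZH family, 3 were lower (21.4%) and FAA1, an acyl-CoA synthetase, higher (1.59 ± 0.36). In sulfur assimilation and methionine synthesis 3 of 23 were higher (13.0%, near the 13.5% of all genes) and 2 lower (8.70%). STR3 was farthest from 0 (1.24 at 15 min and 4.01 at 30 min). Of 7 reference genes none was called by the limma fit. ACT1, actin, had 17267 and 15527 in heat and 12022 and 12507 with depletion (adjusted p = 0.533). PDR5, a drug efflux pump, had 2380 and 3217 in heat and 2435 and 2427 with depletion (adjusted p = 0.606).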

How the data were processed

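Per the labels' protocols, polyA RNA of the Sis1-AA strain was measured after a phenol and chloroform extraction and an NEBNext Ultra library preparation. Bowtie, HTSeq and the sacCer3 build are named in the submitters' processing notes, without versions, and strand use and annotation are not given in the sources used here. The authors deposited 1 table of a signal, gene counts that each library's size factor had scaled, per the file headers, and the scaling method is not given there. In 9 of the 12 libraries, the 4 compared here among them, all values (100%) gave whole reads within 0.05 read when divided by the library's smallest step. Of the listed genes, 5023 are in the RefSeq annotation of R64 and 22 are not.

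The table was analysed as log2(value + 1) with limma 3.58.1 (R 4.3.3, eBayes with a mean-variance trend), course and time as terms, 1 residual and 4.02 prior degrees of freedom, on the genes with a mean of at least 10. No time point is replicated, so standard errors rest on the agreement of 2 times and on the spread over genes. On recovered reads edgeR 4.0.16 (quasi-likelihood test, same terms) called 1524 genes. Counting intervals are exact at 95%, from reads without molecular identifiers.

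The 45 gene lists and the genes named were chosen with earlier results of these data known, so they are descriptions and not independent support. Some genes stand in more than 1 list, such as CTT1, HXK1, GLK1 and TFS1. Counts of lists that share genes are not independent of each other. Named genes are SIS1, FPR1, TOR1 and RPL13A, the 6 largest called differences on either side with a mean of at least 50, genes at least 2-fold above or below the untreated library at both depletion times (the 4 lowest, 4 nearest 0 with the largest rise, 4 highest, and 3 largest falls), 19 marker genes, and the highest and lowest member of each list described. Further list members were named after their values were seen. One named gene is not reported here. Promoters and motifs were read from the RefSeq genome of R64, of the same assembly as sacCer3, by gene strand. Overlaps with other annotated genes were checked for each named gene, and GLK1, RPA14 and YAK1 overlap another gene on the same strand.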

Additional observations from a re-analysis of the deposited data

Results flagged for a closer look

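In 5 genes heat lay at least 2-fold above depletion at 15 min and at least 2-fold below it at 30 min. The change between the times was not tested, since each time is 1 library per course. BTN2, the sorting factor of misfolded proteins, differed by 2.37 at 15 min and -1.42 at 30 min. ARO9, an aminotransferase of aromatic amino acids, differed by 1.83 at 15 min and -1.32 at 30 min, with normalized counts of 4343 and 868 in heat and 1217 and 2164 with depletion (15 and 30 min). ARO10, the decarboxylase of the same breakdown route, differed by 1.37 at 15 min and -1.33 at 30 min, with 3513 and 849 in heat and 1357 and 2131 with depletion. CHA1, which breaks down serine and threonine, differed by 1.17 at 15 min and -1.04 at 30 min, with 3446 and 1006 in heat and 1534 and 2077 with depletion. LST8, a subunit of the TOR complexes, differed by 1.72 at 15 min and -1.26 at 30 min, with 3461 and 840 in heat and 1048 and 2020 with depletion. In each of the 5 genes the heat value was lower and the depletion value higher at 30 min than at 15 min.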

How the results depend on the processing

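The counts of called genes moved most with the call rule. With the adjusted p alone 2526 genes were called, 1170 higher and 1356 lower in heat, and with 4-fold in place of 2-fold 627, 231 higher and 396 lower. Other pseudocounts, filters, scalings, edgeR, a spread from all 10 treated libraries and subtraction of the own untreated library gave 1476 to 1535, but the 1535 calls of that subtraction shared only 1328 with the 1522, and the others between 1400 and 1522. The fit with no time block, the only blocking factor as no replicate is paired, gave 1525. Without 1 of the 4 libraries the counts were 1578 to 2001. The share of calls that were higher was 43.8%, 44.6% with equal totals, 47.0% with TMM and 49.9% with quantile normalization, and the median over all genes at 15 min shifted by -0.15 with equal totals and by 0.13 with quantile normalization. Genes lowered with depletion numbered 13 under quantile normalization.

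Of 138 called genes chosen for naming, 22 lost the call under an alternative other than the 4-fold limit, 1 time or 1 library left out. With no filter, where the fit had 2.18 prior degrees of freedom, these were HSP82, HSP42, HSP78, CPR6, HSP60, HSP10, UBI4, TSA1, MXR1, STR3 and GCN4. Under a rescaling or edgeR they were HSP82, FET3, DLD3, FTR1, GCN4, IFH1, HTB1, HTB2 and MXR1. After subtraction of the own untreated library they were DOT6, FAA1, GCN4, HSP60, HTB1, IFH1, MTL1 and PDI1, and with no time block HXT2. The cause was not tested.

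None of the genes whose difference changed sign was called. At 15 min alone the values were 0.85 for SPO24, 0.81 for YDJ1, -0.033 for PDR5, 0.91 for MBF1 and 0.98 for SSA2. At 30 min alone they were -0.44 for SIS1, -1.42 for BTN2, -0.62 for CUR1, 0.38 for GAC1, -0.65 for SSE1, -0.93 for FES1, -0.20 for HSC82, -0.0020 for SSC1, -1.26 for LST8, -1.32 for ARO9, -1.33 for ARO10, -1.04 for CHA1 and 0.13 for PDC1. TMM gave 0.015 for GAC1 and 0.017 for SSA2, edgeR 0.016 for GAC1 and 0.017 for SSA2, equal totals -0.0050 for ARO10, and quantile normalization 0.074 for SPO24, 0.14 for ISU1 and 0.0091 for GAC1. Against the own untreated library the values were -0.077 for SIS1, 0.086 for TOR1, -0.13 for PDR5, -0.021 for PGM1, -0.063 for ARO10 and -0.0043 for CHA1. Leaving out 1 library gave -1.0 to 1.05 for ARO10, -0.90 to 1.42 for ARO9, -0.96 to 1.91 for BTN2, -0.83 to 0.95 for CHA1, -0.54 to 0.70 for CUR1, -0.71 to 1.79 for FES1, -0.46 to 0.38 for GAC1, -0.79 to 1.25 for LST8, -0.95 to 0.47 for MBF1, -0.42 to 0.13 for PDC1, -0.030 to 0.40 for PDR5, -0.0090 to 0.49 for PGM1, -0.19 to 1.23 for SIS1, -0.90 to 0.61 for SPO24, -0.83 to 0.75 for SSA2, -0.34 to 1.10 for SSE1 and -1.02 to 0.63 for YDJ1.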

Other observations

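In other gene groups the called members were a minority. Of 27 nitrogen-regulated genes 6 were called higher in heat (22.2%) and 1 lower, with UGA1, of GABA breakdown, highest (2.08). Of 23 sterol synthesis genes 4 were lower (17.4%) and none higher, with ERG3 lowest (-2.24). Of 19 permeases of rich medium 1 was higher and 3 lower, of 15 phosphate-regulated genes 1 was higher and 1 lower, and of 45 secretory pathway genes 1 was higher and 4 lower. For comparison, 13.5% of all genes tested were higher and 17.3% lower.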
